A study of Mus musculus with 217 samples.

Results

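*Foxf1*, *Foxf2*, *Foxq1*, *Tbx1*, *Tbx2*, *Tbx3*, *Tbx4*, *Gata4* and *Hoxa5* are 9 transcription factor genes, of 52550 genes counted, that were taken by name as factors known from the vessels or the surrounding tissue of single organs. Their levels were followed in RiboTagEC mice, in which an HA-tagged copy of the ribosomal protein Rpl22 is switched on in endothelial cells (ECs) and the mRNA bound to tagged ribosomes is pulled down and sequenced. Every group carried the genotype Cdh5CreERT2/+; Rpl22HA/+ on the C57BL/6J strain, the controls included, and every adult mouse had been given 5 mg of tamoxifen by mouth on 4 alternate days at 4 to 6 weeks of age. The *Cdh5* promoter drives the Cre, so any cell in which that promoter was active can carry the tag, and which mouse gave which library is not stated in the sources used here. Brain, lung and heart were taken at baseline (0 hr, control mice that received PBS in place of LPS) or at 6, 24, 48, 72 or 168 hr after 10 mg/kg of intraperitoneal lipopolysaccharide (LPS), a bacterial cell wall component that sets off systemic inflammation. In that order of times there were 5, 5, 4, 6, 4 and 4 usable libraries of brain, 4, 4, 2, 6, 4 and 4 of lung, and 5, 5, 4, 6, 4 and 4 of heart.

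Transcription factors of the forkhead (Fox), T-box (Tbx), GATA and homeobox (Hox) families bind short DNA motifs and switch programs of genes on or off, and many of them lay out organs in the embryo. Some stay on in the vessels of one organ in the adult, where they are known as part of what makes a brain capillary with its tight barrier differ from a lung capillary made for gas exchange. Several are at least as well known from the mesenchyme, pericytes, epithelium or muscle around the vessels, which matters in a pull-down that carries some RNA of other cells.

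Of 98 libraries, 18 had under 3% of their reads on genes and were left out, and the 80 kept held 284457 to 43417945 counts. All 15 pan-endothelial marker genes were detected in each tissue, but the libraries also held RNA of other cells. At baseline the 14 cardiomyocyte genes summed to 4689 to 9180 CPM (counts scaled to a common library size) in heart, the lung epithelium genes to a median of 11771 CPM in lung, and 9 of 10 tested neuron genes and 10 of 11 tested glia genes were higher in brain than in the other tissues. In bulk libraries of this kind, fewer cells of a type and less RNA per cell cannot be told apart. Some 6 hr libraries stood apart. The genes known to rise early after LPS summed to 849 CPM in the library labelled brain 6 hr replicate 6 and 1044 CPM in the one labelled heart 6 hr replicate 5. The medians over all 6 hr libraries of those tissues, these included, were 11460 and 25931 CPM. Lung 6 hr replicates 1, 2 and 4 had 6.93%, 8.12% and 3.41% of reads on genes and pan-endothelial sums of 3187, 8304 and 3495 CPM, against 17345 CPM in replicate 3. Values that rest on these libraries are given with and without them.

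The members lie on 7 chromosomes, and 2 pairs of them are neighbours. *Foxq1* (chr13:31556134-31560976, plus strand, mm10) and *Foxf2* (chr13:31625816-31631403, plus strand) are 69.7 kb apart, and *Tbx2* (chr11:85832551-85841948, plus strand) and *Tbx4* (chr11:85886422-85916097, plus strand) are 53.9 kb apart. The others are *Foxf1* (chr8:121084386-121088144, plus strand), *Tbx1* (chr16:18580979-18590671, minus strand), *Tbx3* (chr5:119670669-119684724, plus strand), *Gata4* (chr14:63198922-63271692, minus strand) and *Hoxa5* (chr6:52201754-52204587, minus strand). The strand setting of the counting is not stated, so reads of antisense partners could be counted or lost with a member. The exons of *Foxq1* share 3200 of their 4843 bases with *A530084C06Rik* on the opposite strand, so the *Foxq1* level is the least certain of the 9, and the shared stretches of *Tbx3*, *Foxf1* and *Foxf2* are 115, 98 and 98 bases.

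Windows of 250 bases before a RefSeq transcription start (GRCm38.p6, the same build) were found for *Foxf2*, *Tbx4*, *Tbx1* and *Hoxa5*. Those of *Foxf2* and *Tbx4* are shown because these are members of the same brain response that fell at 6 hr after LPS, from starts of contrasting make-up. The *Foxf2* window lies at chr13:31625566-31625815 on the plus strand. The *Tbx4* window lies at chr11:85896515-85896764 on the plus strand, within the *Tbx4* gene as annotated above, and capitals mark its match to TATAAA, which reads on the minus strand and lies 85 bases before the start.
Foxf2: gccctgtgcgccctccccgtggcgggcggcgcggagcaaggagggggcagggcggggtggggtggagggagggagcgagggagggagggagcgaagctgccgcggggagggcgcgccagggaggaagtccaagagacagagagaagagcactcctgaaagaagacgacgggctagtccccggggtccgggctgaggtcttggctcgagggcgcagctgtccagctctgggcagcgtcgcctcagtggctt
Tbx4: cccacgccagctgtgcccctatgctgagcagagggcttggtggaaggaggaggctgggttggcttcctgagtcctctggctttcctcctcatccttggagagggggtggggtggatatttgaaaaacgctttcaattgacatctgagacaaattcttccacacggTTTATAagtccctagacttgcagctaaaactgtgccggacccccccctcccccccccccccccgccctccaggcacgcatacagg
The *Foxf2* window is 71.6% G and C with 21 CpG, against a median of 52.4% and 6 CpG over 32851 mouse promoters. The *Tbx4* window is 58.4% G and C with 6 CpG, and TATAAA stands on either strand in 12.4% of all these promoters. The 8 motifs searched on both strands were the forkhead core TGTTTAC, the GATA core AGATAA, the T-box core AGGTGT, the TCF/LEF core CTTTGAT, the ETS core CCGGAAG, the NF-kB site, the AP-1 site TGACTCA and the TATA box TATAAA. The *Foxf2* and *Hoxa5* windows held no match, and AGGTGT stood 76 bases before one *Tbx1* start and in 11.8% of all promoters. A match is a run of letters, not a measured binding site.

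At baseline the 9 genes fell into 3 groups by the tissue in which they were highest. *Foxf2*, *Foxq1* and, less firmly, *Tbx1* were highest in brain ECs, *Tbx2*, *Hoxa5*, *Foxf1*, *Tbx3* and *Tbx4* in lung ECs, and *Gata4* in heart ECs. Each tissue was first set against the mean of the other 2 on the log2 scale (edgeR's quasi-likelihood test, Benjamini-Hochberg adjusted over all genes tested). On that scale a gene near 0 in one tissue can pass as higher in both of the others, as *Foxf2* and *Tbx4* did in brain and lung. In brain 4 members were higher (*Foxf2*, *Foxq1*, *Tbx4*, *Tbx1*), beside 35.1% of all genes, and 4 were lower (*Tbx2*, *Tbx3*, *Gata4*, *Hoxa5*), beside 23.4%. In lung 6 were higher (*Foxf1*, *Tbx2*, *Tbx3*, *Tbx4*, *Foxf2*, *Hoxa5*), beside 28% of all genes, and none was lower, beside 34.4%. In heart *Gata4* was the 1 member higher, beside 27.7%, and 6 were lower (*Foxf1*, *Tbx1*, *Tbx2*, *Tbx4*, *Foxf2*, *Foxq1*), beside 30.5%. For brain, lung and heart the median log2 difference of the members was 0.19, 2.54 and -3.02, against 0.22, -0.35 and -0.07 over all genes tested. The brain share of higher members was close to that of all genes, while more members were higher in lung and more were lower in heart than the shares of all genes. In heart *Tbx3* (-0.29 ± 0.29, adjusted p = 0.411) and *Hoxa5* (-1.14 ± 0.56, adjusted p = 0.096) did not pass in either direction. *Hoxa5* was called lower in heart with no filter on low counts (-1.17, adjusted p = 0.0128), and without brain replicate 4, heart replicate 2 or lung replicate 4 (-1.53 to -1.30, adjusted p of 0.0295 to 0.0393).

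**Figure D1:**
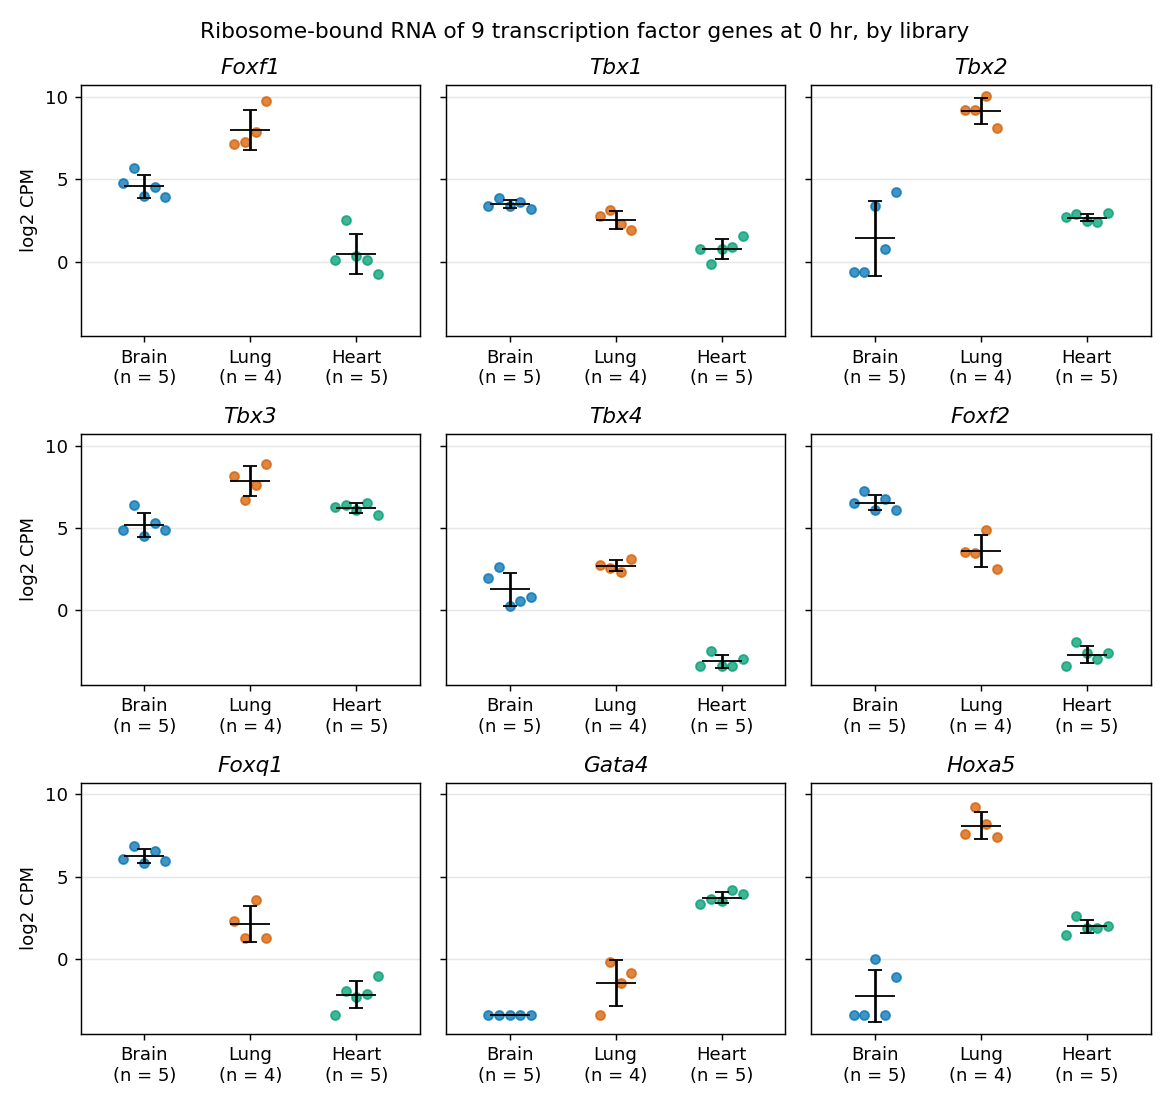
Level of each of the 9 transcription factors at 0 hr (log2 CPM, y axis) in brain, lung and heart ECs (x axis); points are libraries (5 brain, 4 lung, 5 heart) and bars give the mean ± SD. *Foxf2* and *Foxq1* sit highest in brain, *Foxf1*, *Tbx2*, *Tbx3* and *Hoxa5* highest in lung, and *Gata4* highest in heart.

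*Foxf2*, a forkhead factor needed for brain pericytes and the blood-brain barrier, was read in brain at 90.5, 153, 69.5, 108 and 69.0 CPM in the 5 baseline libraries. In lung it was at 11.6, 11.2, 29.0 and 5.71 CPM, and in heart at 0, 0.163, 0.0717, 0.0325 and 0.0675 CPM, 7 counts over the 5 libraries. The tissues did not overlap, and *Foxf2* in heart was close to the detection limit. Brain stood above the mean of the other 2 by a log2 fold change of 6.57 ± 0.42 (SE, adjusted p = 3.63e-09). Brain exceeded lung by 2.69 ± 0.45 (adjusted p = 0.000108), and lung exceeded heart by 7.76 ± 0.63 on the log2 scale, a value that depends on the few heart counts.

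*Foxq1*, a forkhead factor whose expression in brain endothelium follows Wnt signalling, was at 67.2, 117, 57.9, 93.3 and 61.7 CPM in brain. Lung libraries held 4.93, 2.37, 12.0 and 2.35 CPM, and heart libraries between 0 and 0.405 CPM. Again the tissues did not overlap, in the order brain, lung, heart. The log2 fold change was 6.28 ± 0.46 for brain against the mean of the other 2 (adjusted p = 1.56e-08) and 3.80 ± 0.55 for brain against lung (adjusted p = 2.78e-05). The library that was highest for *Foxf2* in brain, replicate 2, was also highest for *Foxq1*.

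*Tbx1*, the T-box gene best known from the DiGeorge deletion and from lymphatic and brain vessel growth, was low in all 3 tissues. It was at 10.2, 14.4, 10.4, 12.1 and 9.13 CPM in brain, at 6.67, 8.83, 4.73 and 3.67 CPM in lung, and at 1.58, 0.817, 1.61, 1.79 and 2.80 CPM in heart. Every brain library was above every lung library, and every lung library above every heart library. Brain exceeded the mean of the other 2 by 1.76 ± 0.29 on the log2 scale (adjusted p = 7.96e-05), and lung exceeded heart by 1.83 ± 0.36 (adjusted p = 0.000578). The step from brain to lung was 0.85 ± 0.36 (adjusted p = 0.049) and was lost, at adjusted p between 0.0607 and 0.151, when any one of 9 libraries was left out (brain replicates 1, 2, 3 and 4, lung replicates 3 and 4, heart replicates 1, 3 and 4, with log2 fold changes of 0.64 to 0.90). *Tbx1* was thus higher in brain and lung than in heart, and its order between brain and lung was not settled by these libraries.

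*Tbx2*, a T-box repressor known from lung mesenchyme and from the heart's conduction system, had the highest median lung level among the 9 when levels were taken per length. Lung libraries held 598, 591, 1045 and 272 CPM. Brain libraries held 0.538, 0.541, 10.1, 1.58 and 18.5 CPM, and heart libraries 6.31, 7.19, 5.49, 5.13 and 7.52 CPM. The lung libraries were all far above the rest, while brain spread widely around the tight heart values. Lung exceeded the mean of the other 2 by 6.87 ± 0.62 on the log2 scale (adjusted p = 4.6e-07), and brain against heart did not pass (-0.56 ± 0.72, adjusted p = 0.537).

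*Hoxa5*, a homeobox gene that patterns the embryonic lung, was at 196, 598, 297 and 168 CPM in lung, at 2.72, 6.13, 3.66, 3.57 and 3.98 CPM in heart, and at 0, 0, 0.920, 0 and 0.379 CPM in brain. Lung was above heart and heart above brain in every library. The log2 fold changes were 8.21 ± 0.54 for lung against the mean of the other 2 (adjusted p = 3.73e-08), 6.23 ± 0.66 for lung against heart (adjusted p = 3.04e-06) and -3.96 ± 0.69 for brain against heart (adjusted p = 0.000172).

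*Foxf1*, the forkhead factor of lung mesenchyme and lung capillaries whose loss in people causes alveolar capillary dysplasia, was at 141, 153, 230 and 850 CPM in lung. In brain it was at 27.6, 50.3, 15.5, 23.1 and 15.1 CPM and in heart at 0.963, 5.72, 1.15, 0.974 and 0.506 CPM. The 3 tissues did not overlap, although lung replicate 4 was well above the other lung libraries. Lung exceeded brain by 3.57 on the log2 scale (brain minus lung -3.57 ± 0.50, adjusted p = 2.25e-05), and brain exceeded heart by 3.94 ± 0.52 (adjusted p = 1.06e-05). *Foxf1* was therefore shared by lung and brain, at a lower level in brain, and was low in heart.

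The T-box factors *Tbx3* and *Tbx4* are close relatives of *Tbx2*, and *Tbx4* marks lung mesenchyme and the hindlimb. *Tbx3* was measured at 22.5 CPM or more in every baseline library, at 281, 106, 195 and 478 CPM in lung, 77.6, 83.7, 67.5, 91.6 and 54.2 CPM in heart, and 30.0, 82.5, 22.5, 39.9 and 29.0 CPM in brain. Its lung libraries were above all others, and brain replicate 2 lay within the heart values. Lung against heart gave 1.60 ± 0.34 (adjusted p = 0.00101) and brain against heart -1.03 ± 0.32 (adjusted p = 0.0129) on the log2 scale. *Tbx4* was at 6.67, 5.93, 4.91 and 8.60 CPM in lung and 3.86, 6.19, 1.13, 1.40 and 1.69 CPM in brain, with brain replicate 2 inside the lung values. Heart held 2 *Tbx4* counts over its 5 libraries, so its fitted difference there depends on the prior count, while brain against lung was -1.43 ± 0.43 (adjusted p = 0.00921).

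*Gata4*, a zinc finger factor of heart muscle and endocardium, was at 10.3, 12.4, 11.4, 18.1 and 15.5 CPM in heart. Lung held 0, 0.790, 0.268 and 0.469 CPM, and none of the 5 brain libraries had a count, which allows up to 0.0273 CPM over the group. Heart was above lung in every library, by 4.94 on the log2 scale (lung minus heart -4.94 ± 0.54, adjusted p = 1.85e-05). Against the limit that 3 counts set, *Gata4* was at least 523-fold higher in heart than in brain. The cardiomyocyte list, which *Gata4* is also known from, was higher in heart for 14 of 14 genes, and its part in the *Gata4* level was not tested.

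Between pairs of tissues, 9 of the 9 members differed between brain and lung, beside 64.3% of all genes, 8 between brain and heart, beside 54.8%, and 9 between lung and heart, beside 61.1%. The exception was *Tbx2* in brain and heart. The *Tbx1* call between brain and lung is the one that was lost without single libraries, and DESeq2 did not make it (adjusted p = 0.058). Other cell types moved with the tissue as well. The lung epithelium list was higher in lung for 13 of 13 genes tested. Mural genes are the markers of pericytes and smooth muscle. Of 14 mural genes 3 were higher and 2 lower in brain, 5 and 3 in lung, and 3 and 9 in heart. Their summed level was highest in brain, at 1291 to 3566 CPM, against 390 to 607 CPM in lung and 323 to 581 CPM in heart. The pan-endothelial list was higher in lung for 6 of 15 and in heart for 12 but in brain for 0, with 12 lower. The part of these lists in the members' levels was not tested.

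**Figure D2:**
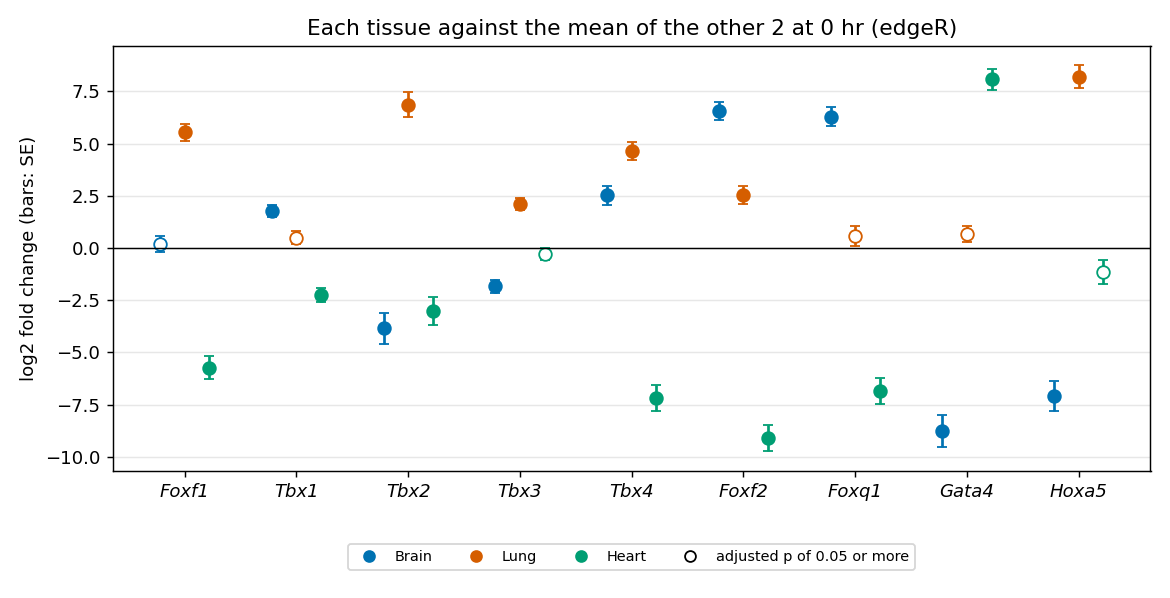
Log2 fold change at 0 hr of each tissue against the mean of the other 2 (y axis) for each of the 9 genes (x axis), with bars for the standard error. Open points have an adjusted p of 0.05 or more. *Foxf2* and *Foxq1* reach 6.57 and 6.28 in brain, *Hoxa5* and *Tbx2* reach 8.21 and 6.87 in lung, and *Gata4* reaches 8.08 in heart.

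Per length, in reads per kilobase of exon scaled to library size (RPKM), the order within each tissue could be read. In brain *Foxf2* led with a median of 38.3 RPKM, above *Foxq1* at 13.9, *Foxf1* at 9.57, *Tbx3* at 4.525 and *Tbx1* at 2.95 RPKM. The lowest *Foxf2* library in brain (29.2 RPKM) was above the highest *Foxq1* library (24.1 RPKM), whereas *Foxq1* and *Foxf1* (6.24 to 20.8 RPKM) overlapped. In lung *Tbx2* at 164, *Hoxa5* at 131 and *Foxf1* at 79.2 RPKM overlapped one another and stood first, with *Tbx3* at 35.9 RPKM next. In heart *Tbx3* led at 11.7 RPKM (8.18 to 13.8), *Gata4* followed at 3.18 RPKM (2.63 to 4.62), and *Hoxa5* (1.45 to 3.26 RPKM) and *Tbx2* (1.41 to 2.07 RPKM) came after them, with *Gata4* and *Hoxa5* overlapping. *Tbx3*, which was lower in heart than in lung, was thus the leading member within heart.

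The relatives of the members gave a background to these patterns. Of 14 other Hox genes tested, 14 were higher in lung, beside 28% of all genes. Their median difference was 4.26 on the log2 scale (*Hoxb4* 7.54, *Hoxa7* 6.51, *Hoxb5* 5.54). In brain 13 were lower, beside 23.4%. *Hoxa5* thus moved with its family. Of 25 other Fox genes, 10 were higher in brain (*Foxc2*, of vessels, 4.13), beside 35.1% of all genes. In lung 8 were higher (*Foxa2*, of airway epithelium, 10.86, and *Foxp1* 3.97), beside 28%. In heart 4 were higher (*Foxm1*, of cycling cells, 3.32), beside 27.7%, and 12 were lower, beside 30.5%, with a median difference of -1.28. The counts of higher Fox genes in brain and lung were near those shares. Of 9 other T-box genes, brain had 5 that were higher, lung had 4 and heart had 2, beside the same shares of all genes. Among them were *Tbx5*, which was higher in lung (6.50) and in heart (2.24), and *Tbx20*, higher in heart (6.44). In heart 6 of the 9 were lower, beside 30.5%, with a median difference of -2.83 over the 9. The low heart values were thus shared by relatives of the members. Of 4 other Gata genes tested, 2 were higher and 2 lower in heart, beside 27.7% and 30.5% of all genes. In lung 3 were higher, beside 28%. *Gata6* was higher in heart, as *Gata4* was, by 3.33 ± 0.33 (adjusted p = 1.03e-06). *Gata2* and *Gata3* were higher in lung, by 3.11 and 6.23.

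Some genes within 100 kb of a member shared its tissue. Next to *Hoxa5*, 10 of 10 tested neighbours were higher in lung, beside 28% of all genes. Next to *Foxf2* and *Foxq1* 3 of 3 were higher in brain, beside 35.1%. Those 3 include the other member of the pair and *A530084C06Rik*, which shares exon bases with *Foxq1*. Next to *Gata4* 0 of 2 were higher in heart, beside 27.7%. The long noncoding RNA *Fendrr*, 1.3 kb from *Foxf1*, was higher in lung by 6.97 ± 0.54 (adjusted p = 1.31e-07), but *Foxc2* and *Mthfsd* nearby were lower there, by log2 fold changes of -3.40 and -0.83. Beside *Tbx3*, its antisense partner *Tbx3os1* was higher in lung by 3.80 ± 0.55, and reads of this pair may not be separable.

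After LPS *Foxf2*, *Foxq1*, *Tbx2*, *Foxf1*, *Hoxa5* and *Gata4* were called higher at all 5 later times in the tissue where they were highest at baseline. At 6 hr *Tbx1* and *Tbx3* were not. Against the mean of the other 2 tissues *Foxf2* was higher in brain by 6.66, 7.01, 7.37, 8.19 and 7.81 on the log2 scale at 6, 24, 48, 72 and 168 hr, and *Foxq1* by 4.69, 4.59, 4.83, 5.93 and 7.14. *Tbx1* was higher in brain from 24 hr on, by 2.69, 3.31, 3.73 and 3.09. At 6 hr its value was 1.04 (adjusted p = 0.141), which edgeR did not call and DESeq2 did (1.30, adjusted p = 0.0119). In lung *Tbx2* was higher by 4.99, 5.46, 5.03, 6.46 and 7.00, *Foxf1* by 3.12, 4.19, 4.67, 4.47 and 6.50, and *Hoxa5* by 3.75, 6.80, 7.00, 7.35 and 8.19 at the same 5 times. In heart *Gata4* was higher by 5.07, 7.57, 8.29, 9.15 and 7.15. *Tbx3* was higher in lung from 24 hr on, but at 6 hr its lung value was 0.35 (adjusted p = 0.671). That lung value was 1.36 with the lung libraries under 10% of reads on genes left out, where 1 lung library remained. In heart *Tbx3* at 6 hr was at 1.19 (adjusted p = 0.0659), or 1.45 (0.0368) with every library kept. The 6 hr value of *Hoxa5* in lung rested on 1 library: without lung 6 hr replicate 3 it turned to -7.42 (adjusted p = 0.223).

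The number of members higher in brain was 2, 3, 3, 5 and 4 at 6, 24, 48, 72 and 168 hr, beside 32%, 35.4%, 26.7%, 33.4% and 34.8% of all genes. In lung it was 3, 5, 5, 5 and 6, beside 13.3%, 27.7%, 22.3%, 27.5% and 29.9%. In heart *Gata4* alone was higher at 6, 24, 48 and 168 hr, beside 18.5%, 27.7%, 20.3% and 29.5%, and *Tbx3* joined it at 72 hr, beside 29.6% (0.90, adjusted p = 0.0396). That *Tbx3* call was lost, at adjusted p between 0.0556 and 0.224, without any one of brain replicates 1, 3 and 5, lung replicate 2 or heart replicates 2, 3 and 5, with log2 fold changes of 0.55 to 1.03. *Tbx4* was not tested at 6 hr, and was higher in lung at the 4 later times by 5.56, 4.98, 5.05 and 5.15.

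In brain ECs the CPM of the brain-high forkhead genes fell after LPS, and that of *Tbx1* rose later. Each time was set against the same 5 baseline libraries, with library series as a covariate, and 8 members were tested, *Gata4* being too low. At 6 hr 3 were lower, *Foxf2*, *Foxq1* and *Tbx4*, beside 2.23% of all genes. At 24 hr *Foxq1* and *Tbx4* were lower, beside 4.66%, at 48 hr *Foxq1* was lower, beside 6.12%, and *Tbx1* higher, beside 8.11%, and at 72 hr *Tbx1* was higher, beside 2.98%. By 168 hr edgeR called none of the 8, beside 0% of all genes, with 0 at an unadjusted p under 0.05 and 0 called by DESeq2 or limma-voom. The median change of the members tested was -0.73 at 6 hr and -0.31 at 24 hr, against 0 and -0.03 over all genes.

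*Foxq1* was at 22.7, 32.9, 21.5, 35.0 and 67.0 CPM at 6 hr, the last in replicate 6, which lacked the early LPS genes. It was at 34.8, 25.2, 32.5 and 27.7 CPM at 24 hr, ranged from 23.8 to 51.4 CPM at 48 hr, and was at 53.2, 56.2, 59.1 and 49.1 CPM at 72 hr and 89.3, 61.3, 94.8 and 98.7 CPM at 168 hr. Apart from replicate 6, every 6 hr library was below every baseline library, as was every library at 24 and 48 hr, and the values at 168 hr lay within the baseline range. The log2 fold changes were -1.14 ± 0.24 (adjusted p = 0.00308), -1.49 ± 0.27 (0.0014), -1.04 ± 0.23 (0.00505), -0.50 ± 0.25 (0.327) and -0.07 ± 0.28 (0.971) in order of time. The calls at 6, 24 and 48 hr held without each library in turn. Without replicate 6 the 6 hr value was -1.43.

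*Foxf2* fell over a shorter time. It was at 37.3, 35.8, 35.0, 55.7 and, in replicate 6, 94.8 CPM at 6 hr, at 75.2, 63.3, 91.9 and 62.6 CPM at 24 hr, between 63.6 and 119 CPM at 48 hr, at 111, 129, 141 and 170 CPM at 72 hr and 130, 90.0, 134 and 149 CPM at 168 hr. The 4 other 6 hr libraries were below all baseline libraries, and the 24 hr libraries overlapped them. In order of time the fitted changes were -0.89 ± 0.20 (adjusted p = 0.00706), -0.62 ± 0.23 (0.0744), -0.31 (0.291), 0.47 ± 0.21 (0.271) and 0.00 ± 0.24. With replicate 6 left out the 6 hr change was -1.09.

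*Tbx4* had the largest fall of the brain genes on few counts. At 6 hr it held 0.157, 0.155, 0.0378 and 0.361 CPM in 4 libraries, from 4, 4, 1 and 10 counts, and 2.47 CPM from 32 counts in replicate 6. At 24 hr it held 1.34, 0.497, 0.461 and 1.01 CPM, at 72 hr 2.43, 2.17, 5.85 and 2.94 CPM, and at 168 hr 3.77, 4.33, 5.08 and 4.86 CPM. The 4 low 6 hr libraries were below every baseline library, and the 168 hr libraries lay inside the baseline range. The change was -2.26 ± 0.45 at 6 hr (adjusted p = 0.00268) and -3.25 without replicate 6, and -1.88 ± 0.50 at 24 hr (adjusted p = 0.0179). The 24 hr call was lost without baseline replicate 2 or 24 hr replicate 1, at -1.83 to -1.73 and adjusted p of 0.0501 to 0.0565.

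*Tbx1* moved the other way with time. At 6 hr it was at 5.59, 6.39, 4.23 and 6.07 CPM in 4 libraries, below every baseline library, and at 16.2 CPM in replicate 6, above them. With replicate 6 the change was -0.58 ± 0.22 (adjusted p = 0.136), and without it -0.93 ± 0.20 (adjusted p = 0.0019), a comparison chosen after the data were seen. It then stood at 18.1, 14.8, 17.7 and 20.8 CPM at 24 hr, between 15.3 and 32.7 CPM at 48 hr, at 17.7, 29.0, 26.6 and 28.9 CPM at 72 hr and at 16.1, 14.5, 19.5 and 23.3 CPM at 168 hr, each of these libraries above the highest baseline library. Fitted changes were 0.39 ± 0.25 at 24 hr (adjusted p = 0.32), 0.74 ± 0.22 at 48 hr (0.0269), 1.13 ± 0.23 at 72 hr (0.00489) and 0.28 ± 0.26 for the last time (0.903). The fits at 24 and 168 hr did not pass although the groups did not overlap. The 48 hr call was lost without baseline replicate 1 or 2 (log2 fold changes of 0.64 to 0.76, adjusted p of 0.0571 to 0.0841).

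Other lists moved in brain over the same times. The pan-endothelial sum had medians of 3862, 2590, 4565, 5311, 5689 and 4580 CPM at 0, 6, 24, 48, 72 and 168 hr, the mural sum 2009, 1251, 1085, 1008, 831 and 2082 CPM, and the neuron sum 4379, 6588, 1315, 1210, 2523 and 1175 CPM. Of the 15 pan-endothelial genes 7 were lower at 6 hr, beside 2.23% of all genes, and 2 were higher, beside 4.21%. Their median log2 fold change was -0.43. The members were therefore also set against the pan-endothelial sum, which itself holds genes that can respond to LPS. Per 1000 pan-endothelial counts, median *Foxq1* was 19.6 at baseline, 10.8 at 6 hr, 6.75 at 24 hr and 18.3 at 168 hr. On the same scale *Foxf2* was 24.1, 17.7, 17.9 and 27.3 at these times, and *Tbx1* was 2.73, 2.34, 4.24 and 4.04. On this scale median *Foxq1* stayed lowest at 24 hr, and median *Tbx1* stayed above its baseline median from 24 hr on. The *Foxf2* libraries at 6 hr (9.84 to 25.8) overlapped those of baseline (17.9 to 27.2). They did so without replicate 6 as well, since replicate 4 stood at 21.5. Those of *Foxq1* (8.71 to 18.2 at 6 hr, 16.0 to 23.5 at baseline) overlapped through replicate 6 alone. The *Tbx1* libraries at 24 hr (3.19 to 4.61) and 168 hr (3.00 to 4.74) overlapped those of baseline (2.36 to 3.51) here, unlike in CPM. The part of other cells in these changes was not tested.

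**Figure D3:**
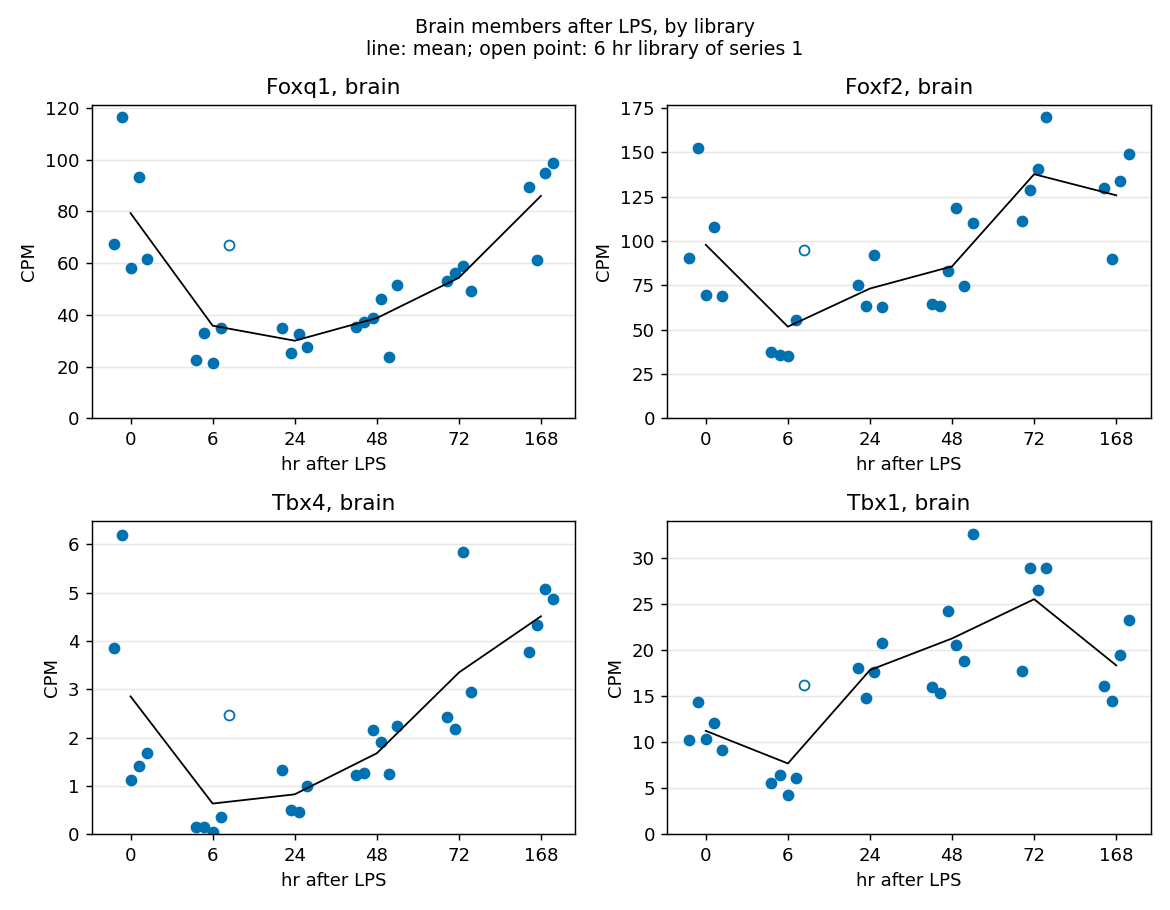
CPM (y axis) of *Foxq1*, *Foxf2*, *Tbx4* and *Tbx1* in brain ECs by hours after LPS (x axis); points are libraries, the line joins the means, and the open point is the 6 hr library with few early LPS genes. *Foxq1* at 24 hr sits between 25.2 and 34.8 CPM, below its baseline libraries, and *Tbx1* from 24 hr on sits above its baseline libraries.

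In lung ECs the clearest change after LPS was a fall of *Tbx2*, and the 6 hr libraries limit what can be said of the rest. All 9 members were tested at 6 hr, where *Tbx2* and *Hoxa5* were lower, beside 2.27% of all genes, and the median change was -1.40 over the members and -0.42 over all genes. At 48 hr *Tbx2* was lower, beside 0.17%. At 24 hr, with 2 libraries, edgeR called none of 9, beside 0.375% of all genes called, while 1 member had an unadjusted p under 0.05, DESeq2 called 1 (*Tbx2*, -2.37, adjusted p = 0.0106) and limma-voom 0. At 72 hr edgeR called none, beside 0.193%, with 3 members at an unadjusted p under 0.05 and 0 called by DESeq2 or limma-voom. At 168 hr edgeR called none, beside 0.0117%, with 0 at an unadjusted p under 0.05 and 0 by DESeq2 or limma-voom.

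*Tbx2* was at 38.2, 72.8, 211 and 28.9 CPM at 6 hr in lung, in order of replicate, against 272 CPM in the lowest baseline library. It was at 91.0 and 57.6 CPM at 24 hr and at 232, 176, 77.2, 51.2, 85.4 and 82.8 CPM at 48 hr. At 72 hr it held 291, 338, 285 and 86.7 CPM, and at 168 hr 282, 322, 429 and 515 CPM. Every library at 6, 24 and 48 hr was below every baseline library, and the 168 hr libraries lay inside the baseline range.

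From 6 to 168 hr the fitted *Tbx2* changes were -3.23 ± 0.65 (adjusted p = 0.00484), -2.41 ± 0.82 (0.393), -2.35 ± 0.55 (0.0359), -1.19 ± 0.58 (0.689) and -0.11 ± 0.65. With the lung libraries under 10% of reads on genes left out, chosen after the data were seen, the 6 hr value was -1.97 (adjusted p = 0.314), with a single library left at that time, the 24 hr value -2.55 (0.0485) and the 48 hr value -2.54 (0.00384). The 48 hr call was lost without any one of 12 of the 24 libraries (0 hr replicates 1, 2 and 3, the 6 libraries of 48 hr, and 168 hr replicates 2, 4 and 5), at log2 fold changes of -2.54 to -2.02 and adjusted p of 0.0513 to 0.153. Per 1000 pan-endothelial counts, median *Tbx2* was 33.7 at baseline and 10.4, 3.23, 4.27, 14.8 and 26.0 at the later times, so the low point on this scale was at 24 hr.

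*Hoxa5* had no count in lung 6 hr replicates 1, 2 and 4, where 3 counts would be 1.79, 4.37 and 86.7 CPM, and was at 50.0 CPM in replicate 3. The limit of replicate 4 is so high that its 0 says little. At 24 hr *Hoxa5* was at 78.6 and 79.9 CPM, at 48 hr between 79.6 and 134 CPM, at 72 hr at 49.6, 58.7, 166 and 76.7 CPM and at 168 hr at 115, 128, 187 and 158 CPM. All libraries from 6 to 72 hr were below the lowest baseline library. The 6 hr change was -4.26 ± 0.94 (adjusted p = 0.00892), or -2.70 (adjusted p = 0.154) with the low lung libraries left out, and DESeq2 did not call it. At 48 and 168 hr the values were -1.66 ± 0.77 (adjusted p = 0.467) and -1.23 ± 0.92.

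*Foxf1* in lung was at 13.7, 36.4, 134 and 28.9 CPM at 6 hr, all below the baseline libraries, at 170 and 179 CPM at 24 hr and at 263, 679, 845 and 883 CPM at 168 hr. The 6 hr change of -2.16 ± 0.70 did not pass (adjusted p = 0.0638), and was -3.61 (adjusted p = 0.00024) without replicate 3. DESeq2 called it (-1.95, adjusted p = 0.00973). *Tbx3* at 6 hr was at 5.37, 65.5, 129 and 57.8 CPM, with a change of -1.40 ± 0.65 (adjusted p = 0.193), or -2.51 (adjusted p = 0.00397) without replicate 3. The *Foxf1* and *Tbx3* values of 6 hr replicate 4, the last of each list, rest on fewer than 3 counts and are uncertain. *Foxf2* was at 0 in 3 of the 4 lung libraries at 6 hr and at 6.10 CPM in replicate 3 (-2.62 ± 1.04, adjusted p = 0.132). Which members passed in lung at 6 hr thus depended on replicate 3, the library with the highest endothelial sum.

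The other lists in lung moved too. The pan-endothelial sum had medians of 18113 CPM at baseline, 5899 at 6 hr and 23046 at 24 hr, the lung epithelium sum 11771, 14560 and 4946 CPM, and the leukocyte sum 430, 2784 and 2029 CPM. Per 1000 pan-endothelial counts *Hoxa5* was 9.43 to 26.3 in the baseline libraries and 2.88 in 6 hr replicate 3. For *Foxf1* the medians on this scale were 11.1 at baseline, 6.06 at 6 hr and 41.8 at 168 hr. The part of other cells in these values was not tested.

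**Figure D4:**
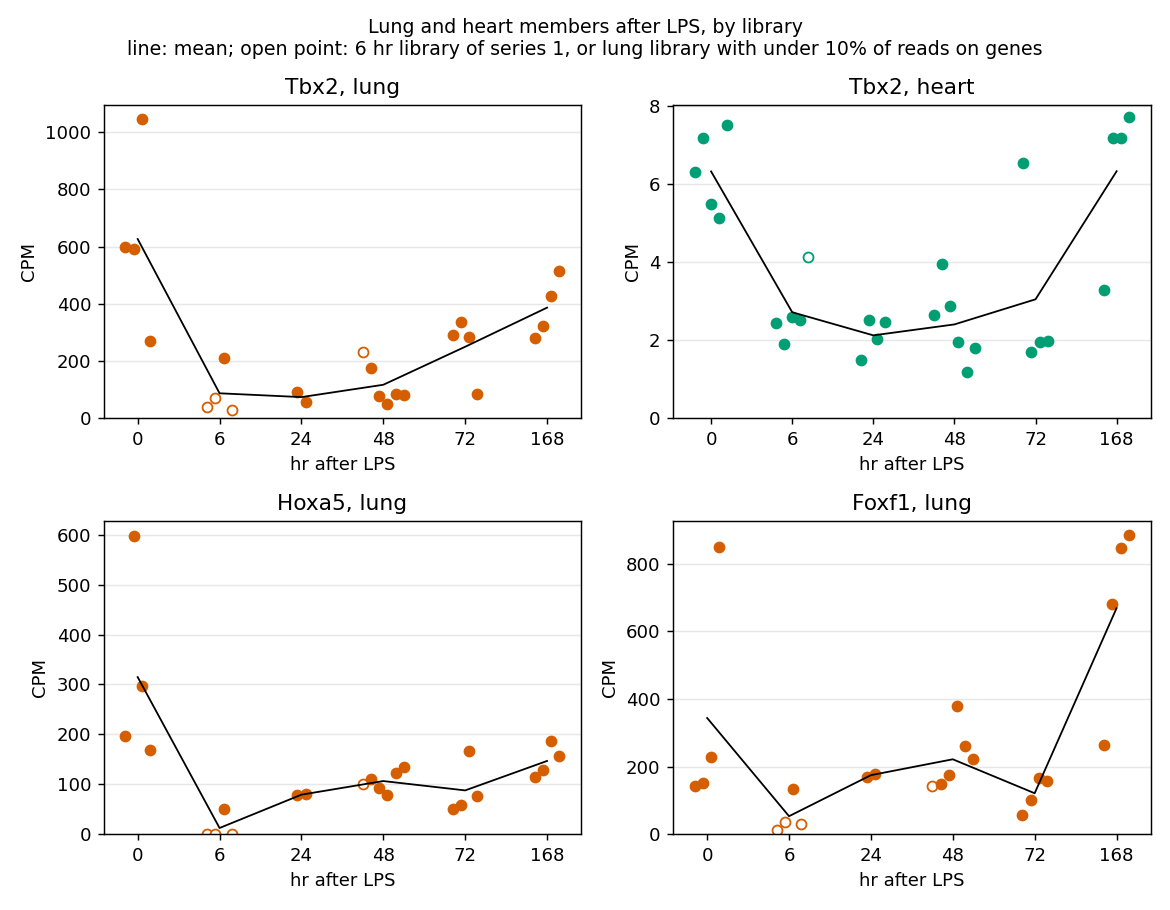
CPM (y axis) of *Tbx2* in lung and heart ECs and of *Hoxa5* and *Foxf1* in lung ECs by hours after LPS (x axis); points are libraries, the line joins the means, and open points are libraries with few early LPS genes or lung libraries with under 10% of reads on genes. *Tbx2* at 24 hr sits at 57.6 to 91.0 CPM in lung and 1.503 to 2.51 CPM in heart, below every baseline library of its tissue.

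In heart ECs *Tbx2* was the member that fell. Of 7 members tested (*Tbx4* and *Foxf2* were too low), *Tbx2* was the 1 that was lower at 6 hr, beside 20.3% of all genes, at 24 hr, beside 7.11%, and at 48 hr, beside 1.11%. At 6 hr this share was below that of all genes. It was at 2.43, 1.90, 2.59, 2.53 and, in replicate 5, 4.14 CPM at 6 hr, at 1.503, 2.51, 2.03 and 2.46 CPM at 24 hr and at 2.65, 3.96, 2.89, 1.97, 1.19 and 1.79 CPM at 48 hr. Each of these was below the lowest baseline library of 5.13 CPM. The changes were -1.22 ± 0.36 (adjusted p = 0.00913), -1.40 ± 0.42 (0.0294) and -1.33 ± 0.35 (0.0293). The 6 hr call held without each library in turn and was -1.61 without replicate 5. At 24 hr it was lost without baseline replicate 2 or 5 or 24 hr replicate 1 or 2 (-1.37 to -1.18, adjusted p of 0.052 to 0.113), and at 48 hr without baseline replicate 1, 2 or 5 or 48 hr replicate 6 or 7 (-1.30 to -1.23, adjusted p of 0.0508 to 0.0938). The 48 hr call was also lost with limma-voom (-1.34, adjusted p = 0.0502), with every library kept (-1.22, 0.054) and with a replicate block (-1.07, 0.237).

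At 72 hr *Tbx2* in heart was at 6.55 CPM in replicate 1 and at 1.71, 1.97 and 1.98 CPM in the other libraries, a change of -1.02 ± 0.38 (adjusted p = 0.513), or -1.70 (adjusted p = 0.0175) without replicate 1. At 168 hr it was at 3.28, 7.17, 7.17 and 7.71 CPM, and the change was 0.24 ± 0.41 (adjusted p = 0.992). Apart from replicate 1 these libraries were inside or just above the baseline range. edgeR called no member at 72 hr, beside 0.275% of all genes, or at 168 hr, beside 0%, with 1 member at an unadjusted p under 0.05 at each time and 0 called by DESeq2 or limma-voom. Per 1000 pan-endothelial counts, median *Tbx2* in heart was 0.469 at baseline, 0.286 at 6 hr, 0.164 at 24 hr and 0.550 at 168 hr. On this scale the 6 hr libraries (0.239 to 0.390) overlapped those of baseline (0.350 to 0.562). The 24 hr libraries (0.129 to 0.214) lay below them. The pan-endothelial list itself moved in heart at 6 hr, with 10 of 15 genes lower, beside 20.3% of all genes, and 1 higher. Its median log2 fold change was -1.03. The part of this in the *Tbx2* change was not tested.

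*Gata4* in heart was at 13.3, 5.75, 6.41 and 8.25 CPM at 6 hr, and at 19.5 CPM in replicate 5. Its change was -0.34 ± 0.29 (adjusted p = 0.351), or -0.66 ± 0.28 (adjusted p = 0.0497) without replicate 5. It was at 10.8, 11.2, 8.56 and 10.8 CPM at 24 hr and at 30.4, 9.36, 12.7 and 15.7 CPM at 168 hr, overlapping its baseline at both times. *Foxf1* at 6 hr was at 4.48, 5.45, 1.97, 2.77 and 2.23 CPM, with a change of 1.35 ± 0.65 that edgeR did not call (adjusted p = 0.094). DESeq2 (1.39, adjusted p = 0.0428) and limma-voom (1.46, 0.0472) called it higher, as did edgeR with no filter on low counts (1.33, 0.0267), with a replicate block (1.46, 0.043), without baseline replicate 2 (1.95, 0.015) and without 6 hr replicate 5 (1.73 ± 0.66, 0.0273). *Tbx3*, the leading member in heart per length, was at 96.0, 137, 81.4, 91.6 and 94.7 CPM at 6 hr (0.45 ± 0.26, adjusted p = 0.173). Its level in heart stayed between 36.8 and 151 CPM over all times, and edgeR called it at no time.

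Among the other members edgeR made no call after LPS, although some libraries lay outside the baseline range. *Tbx3* in brain had a median of 18.7 CPM at 72 hr (15.8 to 23.1), against 30.0 CPM at baseline, with 3 of the 4 libraries below the baseline range, and its change of -1.08 ± 0.40 did not pass (adjusted p = 0.156), but did with no filter on low counts (-1.03, 0.00831). In lung *Tbx3* was at 223 to 442 CPM at 168 hr (-0.18 ± 0.69). *Foxf1* in brain had medians of 23.1 CPM at baseline, 10.7 CPM at 6 hr, where 4 of the 5 libraries were below the baseline range, and 40.2 CPM at 168 hr, with fitted changes between -0.51 and 0.20 over the 5 times. *Gata4* in heart had a median of 16.8 CPM at 48 hr and 20.0 CPM at 72 hr, where 3 of the 4 libraries were above the baseline range, with changes of 0.37 ± 0.29 (adjusted p = 0.484) and 0.60 ± 0.31 (0.906). *Hoxa5* in heart had a fitted difference of -0.82 ± 0.38 at 168 hr (adjusted p = 0.985). *Foxq1* in heart, close to the detection limit, had one of 1.33 ± 0.62 at 6 hr (adjusted p = 0.0846), or 2.03 (0.0286) without baseline replicate 5.

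*Tbx2* was thus lower after LPS in lung and in heart, each against its own baseline libraries. Its brain values, 0.538 to 18.5 CPM at baseline, gave a 6 hr change of -0.88 ± 0.65 (adjusted p = 0.537). Whether the response to LPS differed between tissues was tested with an interaction term. At 6 hr the change of *Tbx4* was lower in brain than in lung by -4.19 ± 1.19 (adjusted p = 0.0294), and that of *Hoxa5* higher by 5.05 ± 1.41 (adjusted p = 0.0256), 2 of 9 members beside 7.71% of all genes. Between lung and heart 3 of the 9 differed, *Foxf1* (-3.35 ± 0.85, adjusted p = 0.0137), *Tbx3* (-2.24 ± 0.73, 0.0433) and *Hoxa5* (-3.88 ± 1.29, 0.0469), beside 12.2%. Between brain and heart edgeR called none, beside 0.132%, with 2 at an unadjusted p under 0.05 and 0 called by DESeq2 or limma-voom.

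The 5 differences at 6 hr rested on the lung libraries. With those under 10% of reads on genes left out none passed, *Tbx4* standing at -2.24 (adjusted p = 0.283), *Hoxa5* at 3.49 (0.202), *Foxf1* at -2.05 (0.273), *Tbx3* at -1.18 (0.385) and *Hoxa5* between lung and heart at -2.44 (0.325). Leaving out 1 library at a time, of 28, kept the *Foxf1* difference in every fit. It lost that of *Tbx4* without baseline brain replicate 2, 6 hr brain replicate 1 or 3, or 6 hr lung replicate 1 (-4.00 to -1.60), and that of *Hoxa5* between brain and lung without 6 hr brain replicate 1 or baseline lung replicate 2 (4.24 to 4.61). The differences of *Tbx3* and *Hoxa5* between lung and heart were lost in 17 and 21 of the 28 fits, at -2.30 to -1.92 and -4.08 to -3.38. At 48 hr edgeR called no member between brain and lung (beside 2.05% of all genes), brain and heart (0.407%) or lung and heart (0.61%), with 3, 1 and 1 members at an unadjusted p under 0.05. DESeq2 called 2 of these between brain and lung (*Tbx2*, adjusted p = 0.04, and *Foxf2*, 0.0299) and limma-voom 1 (*Tbx2*, 0.0421).

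Some neighbours moved with a member after LPS. At 6 hr in brain, *A530084C06Rik* and *1700018A04Rik*, beside *Foxq1* and *Foxf2*, fell, with log2 fold changes of -1.68 ± 0.43 (adjusted p = 0.0149) and -1.74 ± 0.47 (0.024), as did *Fendrr*, beside *Foxf1* (-2.81, 0.0307), while *Foxf1* itself was at 10.2, 14.4, 10.7 and 10.3 CPM in 4 libraries and 41.1 CPM in replicate 6 (-0.51 ± 0.28, adjusted p = 0.349). The first of these shares exon bases with *Foxq1*, so its change is not separate evidence. In lung at 6 hr 2 of the 10 tested neighbours of *Hoxa5*, *Hoxa4* and *Hoxa7*, fell, beside 2.27% of all genes, with log2 fold changes of -2.99 (adjusted p = 0.0271) and -3.31 (0.0247).

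Over the 18 tissue and time groups, genes whose mean log2 CPM was among the most like each member's were named as a description, since all genes share the libraries and the 3 tissues set most of the pattern. *Foxf2* was closest to *Lef1*, a Wnt-responsive factor (Pearson r = 0.978, n = 18 groups), and *Foxq1* to *Lef1* as well (0.986). *Tbx1* was closest to *Tnfrsf19* (0.949), *Tbx2* to *2310001H17Rik* (0.967), *Tbx3* to *Dok1* (0.961), and *Hoxa5* to *Hoxb5* (0.981). *Foxf1* was closest to *Napsa* (0.949) and *Cyp2f2* (0.944), both known from lung epithelium, *Tbx4* to *Cyp2f2* (0.961), and *Gata4* was also close to *Nppa* (0.98), known from heart muscle. Among the members themselves *Foxf2* and *Foxq1* were most alike (0.98), then *Foxf1* and *Tbx4* (0.95) and *Tbx3* and *Hoxa5* (0.93), and the lung-high *Tbx2* and *Hoxa5* stood at 0.83.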

How the data were processed

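Endothelial translatome RNA-seq of brain, lung and heart was analysed. The authors aligned reads to mm10 (STAR 2.4.2 and HTSeq 0.6.1 in the submitters' processing notes) and deposited whole-number counts per Ensembl gene, not normalized, with strand setting and annotation release not given in the sources used here. Runs of one library were summed, giving 98 libraries, and those with under 3% of reads on genes were left out. Depth was 284457 to 43417945 counts per library, and its medians for brain, lung and heart were 23645892, 11376798 and 24082214. The limit set for a count of 0 was 3 counts and covers counting error only. Groups came from the sample titles. Library series, 4 sets read from the naming of the runs, entered as a covariate.

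Genes passing filterByExpr were fitted over all genes with edgeR 4.0.16 (TMM, quasi-likelihood test, R 4.3.3), two-sided, with Benjamini-Hochberg adjusted p under 0.05 as the threshold. SE was the size of the log2 fold change over the root of F. Levels are CPM after TMM (log2 CPM with a prior count of 2) and RPKM by GENCODE M21 exon length. DESeq2 1.42.0, limma-voom (limma 3.58.1), RLE scaling, no filter, no covariate, a replicate block, every library, a depth minimum of 1000000 counts and each library left out were alternatives. Named genes were the 9 members, with relatives, neighbours within 100 kb and most alike genes by the rules of largest fold or correlation, some of which are not reported here. Members and lists were chosen with earlier results of these data known. The fit was tested on simulated data. Replicates are separate samples per the labels. Where mice are not stated, p-values measure the spread between these samples, which may be technical.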

Additional observations from a re-analysis of the deposited data

Results flagged for a closer look

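In 18 of 150 gene and group pairs 1 library stood apart from the rest of its group by the cutoff of Dixon's test. A single library with counts among libraries at 0 always passes this cutoff. The 18 pairs can therefore not be set against a chance rate. In brain at 6 hr *Foxf1* was at 41.1 CPM in replicate 6, against 10.2 to 14.4 CPM in the others. Most of the rest fell into heart libraries numbered 1 or into genes at the detection limit. At 72 hr heart replicate 1 held 6.55 CPM of *Tbx2* (others 1.71 to 1.98) and 48.2 CPM of *Tbx3* (others 100.3 to 112), and at 168 hr heart replicate 1 held 3.28 CPM of *Tbx2* (others 7.17 to 7.71) and 36.8 CPM of *Tbx3* (others 76.7 to 88.0). In lung *Tbx2* was at 86.7 CPM in 72 hr replicate 5 (others 285 to 338) and *Tbx3* at 223 CPM in 168 hr replicate 1 (others 406 to 442). *Gata4* was at 8.56 CPM in heart 24 hr replicate 4, below 10.8 to 11.2 CPM.

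In lung at 6 hr *Hoxa5* was at 50.0 CPM and *Foxf2* at 6.10 CPM in replicate 3, and *Gata4* at 5.97 CPM in replicate 1, with 0 in the other libraries. Single libraries against 0 elsewhere also held *Tbx4* in heart (0.123, 0.0411, 0.0342 and 0.0263 CPM at 6, 24, 72 and 168 hr), *Foxf2* in heart at 168 hr (0.175 CPM) and *Gata4* in brain (0.0355 CPM at 24 hr and 0.131 CPM at 168 hr).

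The response at 6 hr differed by the interaction test for *Tbx4* (-4.19) and *Hoxa5* (5.05) between brain and lung, and for *Foxf1* (-3.35), *Tbx3* (-2.24) and *Hoxa5* (-3.88) between lung and heart. None of these passed once the lung libraries under 10% of reads on genes were left out.

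The 18 libraries with under 3% of reads on genes, 6 per tissue, still held counts of members above the limit of 3. In brain they held 867 counts of *Foxq1* (39 to 196 per library), 39 of *Foxf2* and 6 of *Tbx1*, whereas the kept brain libraries held 36389 counts of *Foxq1* and 65240 of *Foxf2*. In lung they held 61 counts of *Foxf1*, 57 of *Tbx3*, 34 of *Tbx2*, 19 of *Hoxa5* and 10 of *Foxq1*, and in heart 17 of *Tbx3* and 15 of *Foxq1*. The balance of *Foxq1* over *Foxf2* in the left-out brain libraries was the opposite of that in the kept ones, and its cause was not tested.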

How the results depend on the processing

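At baseline brain, lung and heart had 4, 6 and 1 higher members without any one library and in each alternative but DESeq2, which called 5 in lung and gave *Tbx2* no adjusted p. The number of calls after LPS in brain was 8 and fell to 5 with no library series covariate (6 to 9 without single libraries). In lung it was 3 (2 to 6, the 6 without 6 hr replicate 3), and in heart 3 (2 to 5), or 5 with the 6 hr libraries of series 1 left out, which was chosen after seeing the data. Differences between tissues at 6 hr numbered 5, but 3 with DESeq2, limma-voom, no series covariate, every library, at least 1000000 counts or the series 1 libraries left out, and 0 with the lung libraries under 10% left out (2 to 11 without single libraries). At 48 hr they numbered 0, but 1 with RLE scaling, limma-voom, every library or the low lung libraries left out, and 2 with no filter or DESeq2 (0 to 2 without single libraries). Without lung 6 hr replicate 3, *Hoxa5* at 6 hr against the mean of the other tissues turned to 1.73 in brain and -7.42 in lung, from ranges down to -4.73 and up to 4.29 without other single libraries.

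Deviations of same-numbered libraries correlated at -0.232 to 0.647 between tissues (median 0.238, 53 of 73 pairs over 0.1) and at -0.656 to 0.754 between times (median -0.015, 16 of 57). At 24, 48 and 168 hr every pair of tissues was over 0.1, and at 48 and 168 hr the replicate block changed no call between tissues. Between tissues at 0, 6 and 72 hr, and between times, the numbers did not pair the libraries throughout. Against baseline the block took the calls of *Tbx4* in brain at 24 hr (-1.67, adjusted p = 0.0752) and *Tbx2* at 48 hr in lung (-2.41, 0.111) and heart (-1.07, 0.237). It also took that of *Hoxa5* in lung against the other tissues at 6 hr (2.37, 0.516). With no series covariate *Tbx4* and *Foxf2* in brain at 6 hr stood at -2.32 (0.0967) and -0.99 (0.0884). The cause was not tested. Of single values under single changes of setting, 1579 kept their direction and side of the threshold and 57 lost the call. Depth limits *Tbx4* and *Foxf2* in heart, *Gata4* in brain and all lung values at 6 hr.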
